A study of Rattus norvegicus with 4 samples.

Results

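Layer 6 intratelencephalic (L6 IT) excitatory neurons of the rat orbitofrontal cortex are described here, as 1224 nuclei out of 46633 deposited barcodes and out of 18407 nuclei with an excitatory profile. They were chosen by measured UMIs (unique molecular identifiers, each standing for 1 captured RNA molecule). A nucleus needed at least 500 detected genes, at most 5% mitochondrial UMIs, at least 3 UMIs of the excitatory genes Slc17a7 and Camk2a together, and at most 1 UMI of the inhibitory genes Gad1 and Gad2. It then needed at least 3 UMIs of the panel Galnt14, Eya1 and Sulf1, and more than 2 times as many of these as of each of 5 other panels of 3 genes. Those panels define the classes called here L2/3 IT (Cux2, Otof, Glis3; 3655 nuclei), L4/5 IT (Hgf, Rorb, Col8a1; 3584), L5 ET (extratelencephalic; Klhl1, Vat1l, Chst8; 711), L5/6 NP (near-projecting; Trabd2b, Vwc2l, Htr4; 315) and L6 CT (corticothalamic; Foxp2, Syt6, Dnah6; 1644). Layer and projection are names for marker profiles, since neither was measured.

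Intratelencephalic neurons send their axons to other cortical areas, to the opposite hemisphere and to the striatum, and not to the thalamus or brainstem. In layer 6 they lie among corticothalamic neurons, which project to the thalamus. The orbitofrontal cortex takes part in valuing outcomes and choosing between them, and methamphetamine raises extracellular dopamine, noradrenaline and serotonin by acting on their transporters and on the vesicular monoamine transporter.

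The study gave male wild-type Sprague-Dawley rats, 8 weeks old, either methamphetamine (METH, 1 mg/kg, intraperitoneal) or saline for 7 days. Orbitofrontal tissue of 4 rats per group was used for single-nucleus RNA sequencing with 10x Genomics 3' chemistry. There were 2 libraries per group, and the labels do not tie libraries to animals. P-values therefore measure the spread between these libraries, which may be technical. Rats of both groups were anesthetized with pentobarbital before the tissue was taken. In what follows, 4 values in a row stand in the order METH 1, METH 2, saline 1, saline 2.

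The libraries held 308, 240, 316 and 360 L6 IT nuclei with 2323040, 2118522, 1400216 and 3149781 UMIs. Saline 1 stood apart from the rest. It had the most barcodes (18958, against 8467 to 10275) and the shallowest nuclei, with a median of 4028.5 UMIs per L6 IT nucleus against 6628, 7854.5 and 8014.5. The share of L6 IT nuclei, the Cst3 change and the number of METH calls in L6 IT are given with and without saline 1. Other values include it unless stated. No barcode of an L6 IT nucleus was shared between libraries, while 23 to 69 barcodes of any kind were shared by each pair. Doublet scores marked 19, 15, 21 and 22 of the L6 IT nuclei, which were kept in the main analysis and left out in an alternative.

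L6 IT nuclei were 7.50% (95% Clopper-Pearson interval 6.72 to 8.35), 7.18% (6.33 to 8.11), 4.35% (3.90 to 4.85) and 9.72% (8.79 to 10.7) of the excitatory nuclei. The intervals cover counting error only. The saline libraries lay on either side of both METH libraries. The METH mean was 7.34% ± 0.229 and the saline mean 7.04% ± 3.80 (SD, n = 2 each), a difference of 0.302 percentage points (exact two-sided permutation test, p = 1; the smallest p that 2 against 2 allows is 0.333). Without saline 1 the difference was -2.38 points, and without saline 2 it was 2.99 points, so its sign depended on which saline library was used. The rule asks for a number of UMIs, so the share also moved with depth: with every nucleus thinned to 2000 UMIs, the shares were 2.99%, 2.63%, 2.41% and 3.76% of 2408, 2014, 3982 and 2179 excitatory nuclei (shallower nuclei left out). The difference was then -0.276 points. A change in the share of L6 IT nuclei was not detectable in this design.

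**Figure D1:**
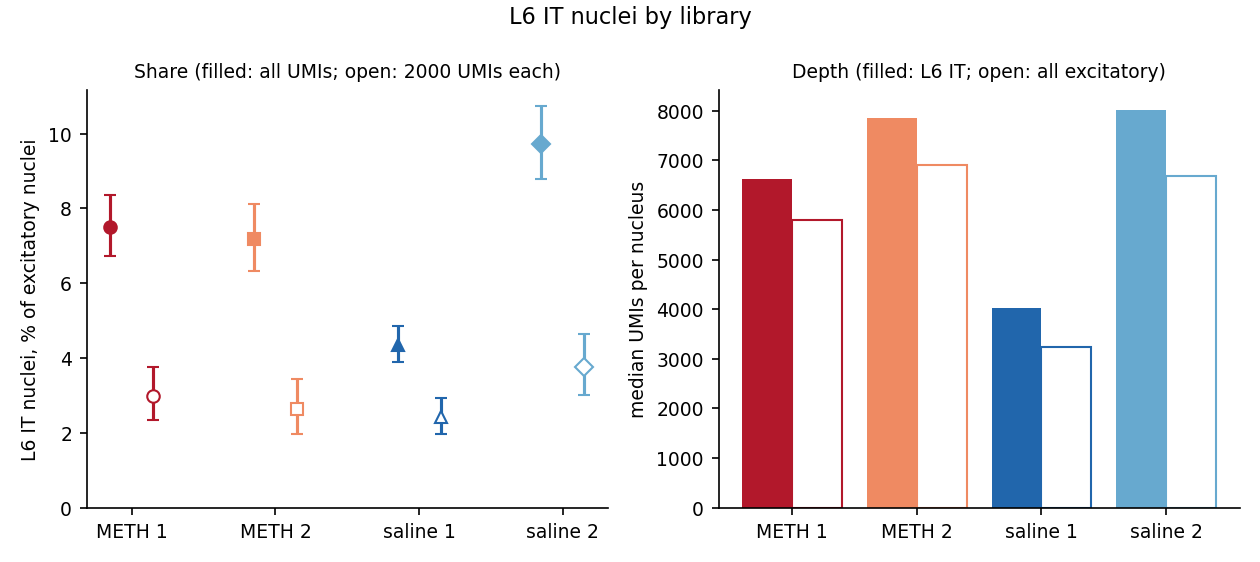
Left, L6 IT nuclei as a percent of excitatory nuclei in each library with 95% Clopper-Pearson intervals, at full depth (filled) and after thinning to 2000 UMIs per nucleus (open); right, median UMIs per nucleus of L6 IT nuclei (filled bars) and of all excitatory nuclei (open bars). The saline libraries lie at 4.35% and 9.72% with the METH libraries between them, and saline 1 has the lowest depth.

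The panel that chose the nuclei was carried mostly by Galnt14. Galnt14, an enzyme that starts mucin-type O-glycosylation, gave 64.8% to 66.5% of the panel UMIs in each library. Eya1, a transcriptional coactivator with phosphatase activity, gave 20.7% to 22.9%, and Sulf1, an extracellular sulfatase that edits heparan sulfate, gave 11.7% to 12.8%. All 3 genes were detected together in 32.8%, 29.2%, 23.4% and 34.7% of L6 IT nuclei, with the lowest share in the shallowest library. As a description of what the rule selected, Galnt14 stood at 745, 757, 831 and 705 CPM (UMIs per 1000000 UMIs of the summed L6 IT nuclei of a library), Eya1 at 261, 235, 293 and 249 CPM, and Sulf1 at 134, 146, 158 and 130 CPM. All 3 were highest in saline 1. Eya1 averaged at most 12.6 CPM in any other class. Galnt14 was also present in L5/6 NP nuclei (mean 229 CPM), and Sulf1 was nearly as high in L6 CT nuclei (mean 118 CPM, against 142 CPM in L6 IT). The L6 CT libraries ran from 101 to 136 CPM for Sulf1, so the ranges of the layer 6 classes overlapped.

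A marker that the rule did not count was Adamts3, a secreted metalloprotease of the procollagen-processing group. It stood at 317, 359, 327 and 337 CPM in L6 IT nuclei, with little spread between libraries and overlapping groups. Its next level was 98.4 CPM in L2/3 IT nuclei, then 32.3 CPM in L6 CT nuclei. At least 1 Adamts3 UMI was found in 73.4%, 77.5%, 57.3% and 76.9% of L6 IT nuclei. In L6 CT nuclei the share was 12.5%, 11.6%, 10.6% and 14.5%, and in oligodendrocyte nuclei, which served as a reference for free RNA, it was 8.90%, 7.77%, 6.30% and 4.74% (median depth 1225.5, 1432.5, 1040.5 and 1374 UMIs). After thinning to 2000 UMIs the L6 IT shares were 41.9%, 43.5%, 42.6% and 43.3%, so the lower share in saline 1 was not seen at equal depth. Adamts3 gave most of the level of a list of 7 L6 IT markers outside the panel, which summed to 347, 378, 349 and 358 CPM. The other members were at most 8.30 CPM on average: Osr1 (4.28 CPM) and Oprk1 (0.797 CPM) were highest in L6 IT, while Col18a1 (8.30 CPM) and Fst (3.19 CPM) ranked 2nd of the 6 classes and Penk (4.44 CPM) and Themis (2.00 CPM) ranked 3rd.

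Of the 1224 nuclei, 184 (15.0%) had exactly the 3 panel UMIs the rule required. In these the Adamts3 level was 216, 191, 306 and 203 CPM. In the nuclei with 5 or more panel UMIs it was 330, 372, 355 and 357 CPM. Nuclei just outside, with 2 panel UMIs and the other conditions met (15, 11, 67 and 12 nuclei), stood at 206, 193, 362 and 284 CPM. By this marker the nuclei just inside and just outside the threshold overlapped, and most of those outside were in saline 1.

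Markers of the neighbouring excitatory classes were low. The corticothalamic factors Tle4 and Zfpm2 averaged 67.7 and 22.9 CPM, against 1048 and 1561 CPM in L6 CT nuclei. Bcl11b, a factor of subcerebral projection neurons, averaged 99.5 CPM against 473 CPM in L5 ET nuclei. Cux2 (7.15 CPM against 652 in L2/3 IT), Rorb (31.3 against 1315 in L4/5 IT) and Foxp2 (50.5 against 2384 in L6 CT) were in the panels that the rule held down, so their low levels follow from the choice. Sox5, known from deep-layer neurons, was at 776 CPM, between L5 ET (725 CPM) and L6 CT (833 CPM).

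Other neurons of the deep cortex and claustrum could have passed the same gate. Nr4a2, a nuclear receptor of claustrum and Car3-type neurons, was detected in 15, 12, 12 and 24 nuclei (4.87%, 5.00%, 3.80% and 6.67%). These nuclei had Adamts3 at 340, 362, 352 and 270 CPM, close to the 316, 359, 326 and 342 CPM of the nuclei without Nr4a2. Lxn, another claustrum gene, had 0 UMIs in the Nr4a2 nuclei and 13 among all L6 IT nuclei. Gnb4 had 2 UMIs in the Nr4a2 nuclei over all libraries and 66 among all L6 IT nuclei. Ca3 had 1 UMI among all L6 IT nuclei. These counts are too low to tell the Nr4a2 nuclei from the rest. Other genes of the claustrum and Car3-type list were higher in the Nr4a2 nuclei. Ntng2 stood at 69.4, 106, 63.9 and 75.8 CPM in them (from 9, 10, 4 and 18 UMIs) against 42.4, 50.9, 35.9 and 41.5 CPM in the nuclei without Nr4a2, higher in all 4 libraries. Synpr, a synaptic vesicle protein, stood at 23.1, 213, 192 and 46.3 CPM (from 3, 20, 12 and 11 UMIs) against 59.7, 40.5, 48.6 and 33.6 CPM, higher in 3 of 4 libraries. Cplx3, which marks layer 6b neurons, had 0 UMIs in every library. Moxd1, another L6b marker, stood at 4.74, 5.19, 10.0 and 7.62 CPM (60 UMIs) and its mean ranked 1st of the 6 classes. Ccn2 (0.957 CPM) ranked 2nd and Nxph4 (0.179 CPM) ranked 5th. The summed level of the 6 L6b markers was 8.18, 9.44, 17.9 and 11.4 CPM. That was above L6 CT (5.85 to 9.14 CPM), L4/5 IT (5.12 to 7.06 CPM) and L2/3 IT (3.59 to 5.98 CPM) in every library. Whether L6b neurons were among these nuclei was not tested. In the summed marker lists, 1 of the 6 L6b markers had no UMI in L6 IT nuclei and none of the 8 claustrum and Car3-type markers was at 0 throughout. By mean level, Nr4a2 (13.1 CPM), Gnb4 (7.61 CPM) and Ntng2 (44.6 CPM) ranked 1st of the 6 classes. Lxn (1.53 CPM) ranked 2nd, Ca3 (0.0794 CPM) 3rd and Synpr (48.9 CPM) 6th. The summed list stood at 127, 133, 124 and 110 CPM. It was above L6 CT (101 to 111 CPM) and below L2/3 IT (180 to 207 CPM) in every library, and overlapped with L4/5 IT (129 to 160 CPM). With the Nr4a2 nuclei left out, the METH comparison given further on still called 1 gene of 10402, the same one as with them.

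Beyond the panel, 20 genes led the class by the ratio of the mean L6 IT level to the highest mean among the other 5 classes, with 10 CPM added to both. Since the nuclei were selected on expression, these levels are a description and carry no test. Several act outside the cell or at its surface. Tll2, a tolloid-like metalloprotease, stood at 31.0, 33.5, 17.9 and 33.7 CPM and at no more than 1.38 CPM on average in any other class. Tgfb2, a transforming growth factor ligand, stood at 53.8, 59.0, 73.6 and 53.3 CPM against 13.3 CPM in L2/3 IT. Rspo2, a secreted enhancer of Wnt signalling, stood at 517, 592, 454 and 446 CPM against 232 CPM in L2/3 IT.

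Rxfp1, the receptor for relaxin, was another leading gene. It stood at 675, 619, 683 and 739 CPM, and every L6 IT library lay above every L5/6 NP library (194 to 363 CPM), the next class. Adhesion and sorting genes also led: Tenm3, a teneurin, averaged 226 CPM (next 93.9 in L5 ET), Sorcs3, a Vps10-domain sorting receptor, 425 CPM (next 187 in L2/3 IT), and Ntng2, the netrin-G2 adhesion protein, 44.6 CPM (next 20.02 in L2/3 IT). Tanc1, a postsynaptic scaffold protein, averaged 81.1 CPM (next 18.3 in L2/3 IT). Dach1, a partner of Eya proteins, averaged 23.6 CPM against 8.06 CPM in L4/5 IT, although in saline 2 it was not above the next class; the same held for Plekhg3, a guanine nucleotide exchange factor, in saline 1. The 20 genes also held Adamts3, Kif28p, Heg1, Plekhg1, Snx7, Prss12, Plekhg3, Prkd1, Chrna7, Chst11 and Aff1. The log2 ratio of these 20 genes stayed above 0 in 100 of 100 gene-by-setting values (0.63 to 1.82) under 5 other choices of nuclei. These choices were added after the data had been seen. The genes were picked by this same ratio and the choices share most of their nuclei, so a positive value was largely fixed in advance. It gives no independent support.

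**Figure D2:**
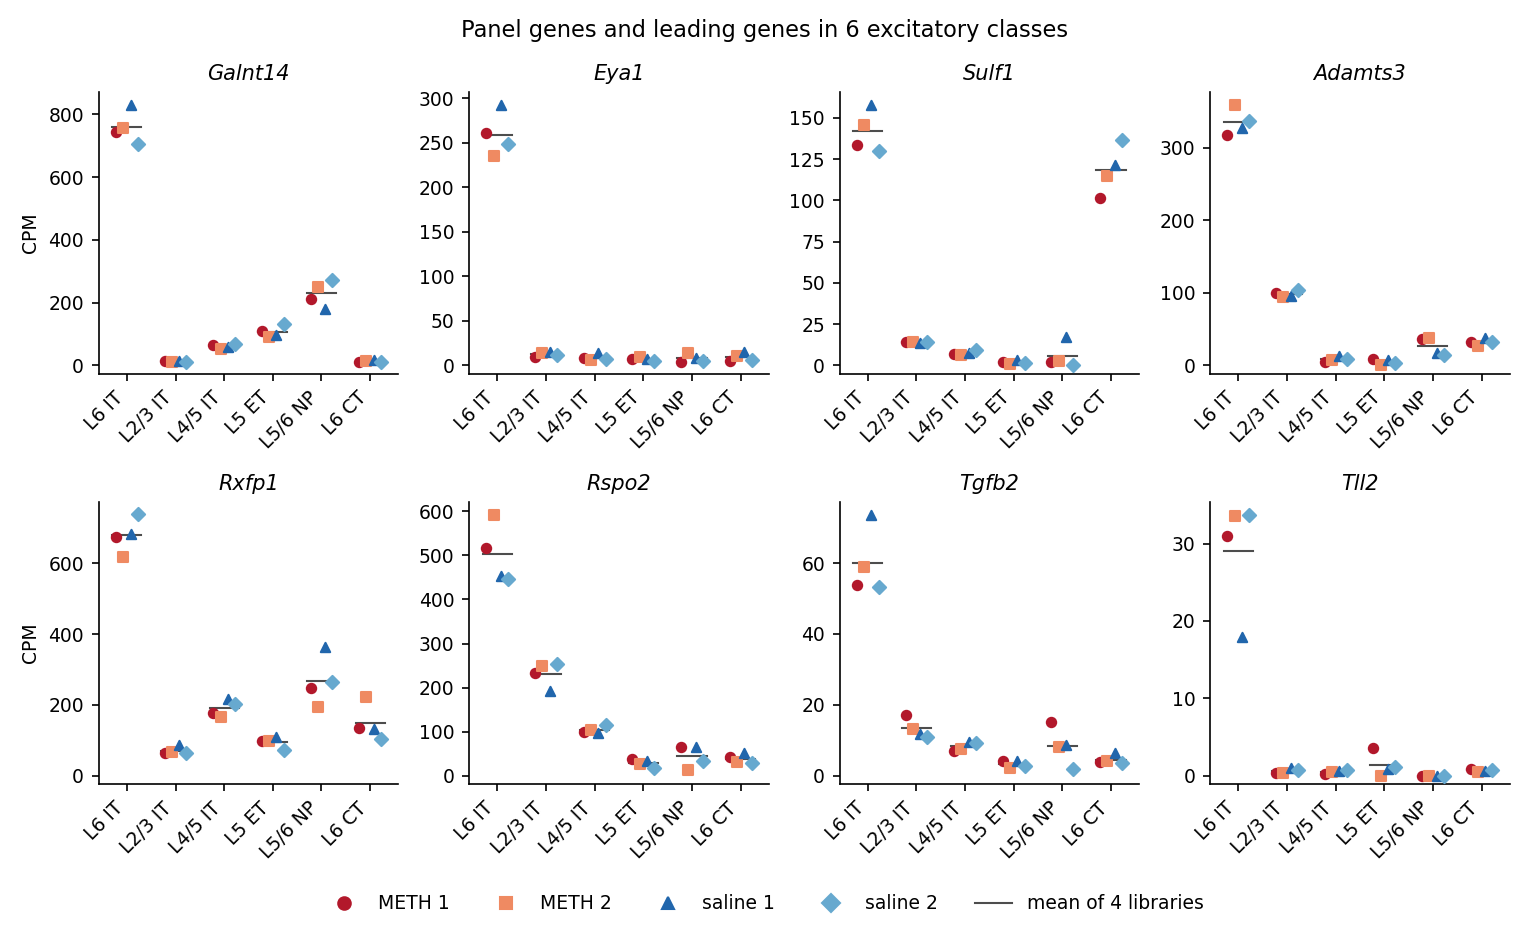
Levels in CPM of the 3 panel genes Galnt14, Eya1 and Sulf1, of Adamts3 and of 4 leading genes in 6 excitatory classes; each point is 1 library and each line the mean of 4 libraries. Sulf1 is also present in L6 CT, while Adamts3, Rxfp1, Rspo2, Tgfb2 and Tll2 are highest in L6 IT in all 4 libraries.

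Receptors for the transmitters that METH releases were read across the same classes. Drd2, the D2 dopamine receptor, stood at 27.6, 19.4, 29.3 and 13.7 CPM in L6 IT nuclei, from 64, 41, 41 and 43 UMIs. The groups overlapped. At least 1 Drd2 UMI was found in 11.4% (95% Clopper-Pearson interval 8.04 to 15.4), 10.0% (6.51 to 14.5), 6.96% (4.41 to 10.4) and 7.78% (5.23 to 11.0) of L6 IT nuclei. In L6 CT nuclei it was found in 0 of 432, 0 of 285, 3 of 464 (0.647%) and 0 of 463, and the counts of 0 allow shares of up to 0.694%, 1.05% and 0.648% (3 counts). In oligodendrocyte nuclei it was found in 0 of 1180, 0 of 1222, 1 of 524 (0.191%) and 0 of 843, where the counts of 0 allow up to 0.254%, 0.245% and 0.356%. At 2000 UMIs the L6 IT shares were 5.84%, 4.60%, 4.62% and 2.78%. L5/6 NP nuclei also carried Drd2 (22.6, 5.46, 0 and 27.8 CPM, from 12, 2, 0 and 16 UMIs), and their range overlapped with that of L6 IT. In L2/3 IT, L4/5 IT, L5 ET and L6 CT it averaged at most 0.82 CPM. Drd1, the D1 receptor, was near the limit of detection, at 2, 2, 2 and 4 UMIs per library.

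Of the serotonin receptors, Htr2a stood at 68.0, 103, 75.7 and 81.6 CPM, below L4/5 IT (140 CPM) and above L6 CT (28.3 CPM). Htr2c stood at 13.8, 5.19, 24.3 and 7.94 CPM, while the means of L4/5 IT, L5 ET, L5/6 NP and L6 CT ran from 114 to 330 CPM. Among the adrenergic receptors, Adra1a averaged 73.1 CPM against 235 CPM in L6 CT and 262 CPM in L5 ET, and Adra1b averaged 52.3 CPM. The plasma membrane dopamine transporter Slc6a3 and the trace amine receptor Taar1 had 0 UMIs. The vesicular transporter Slc18a2 stood at 65.0, 71.7, 52.1 and 65.7 CPM, a level also seen in the other classes (50.9 to 80.1 CPM).

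Opioid and cholinergic receptor genes had other levels in L6 IT nuclei than in L6 CT nuclei, given as a description. Oprd1, the delta opioid receptor, stood at 128, 96.3, 87.1 and 114 CPM, above all L2/3 IT libraries (49.8 to 74.1 CPM) and above the L6 CT mean of 15.9 CPM. Oprm1, the mu receptor, averaged 184 CPM against 368 CPM in L6 CT. The kappa receptor gene Oprk1 had 3, 2, 0 and 3 UMIs. Chrna7, the alpha7 nicotinic subunit, stood at 145, 145, 184 and 137 CPM and led the class (next 87.1 CPM in L5 ET). Chrna5, a nicotinic subunit of corticothalamic neurons, averaged 12.4 CPM against 174 CPM in L6 CT. Crhr1, a corticotropin-releasing hormone receptor, averaged 46.8 CPM, with libraries from 45.8 to 48.6 CPM.

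**Figure D3:**
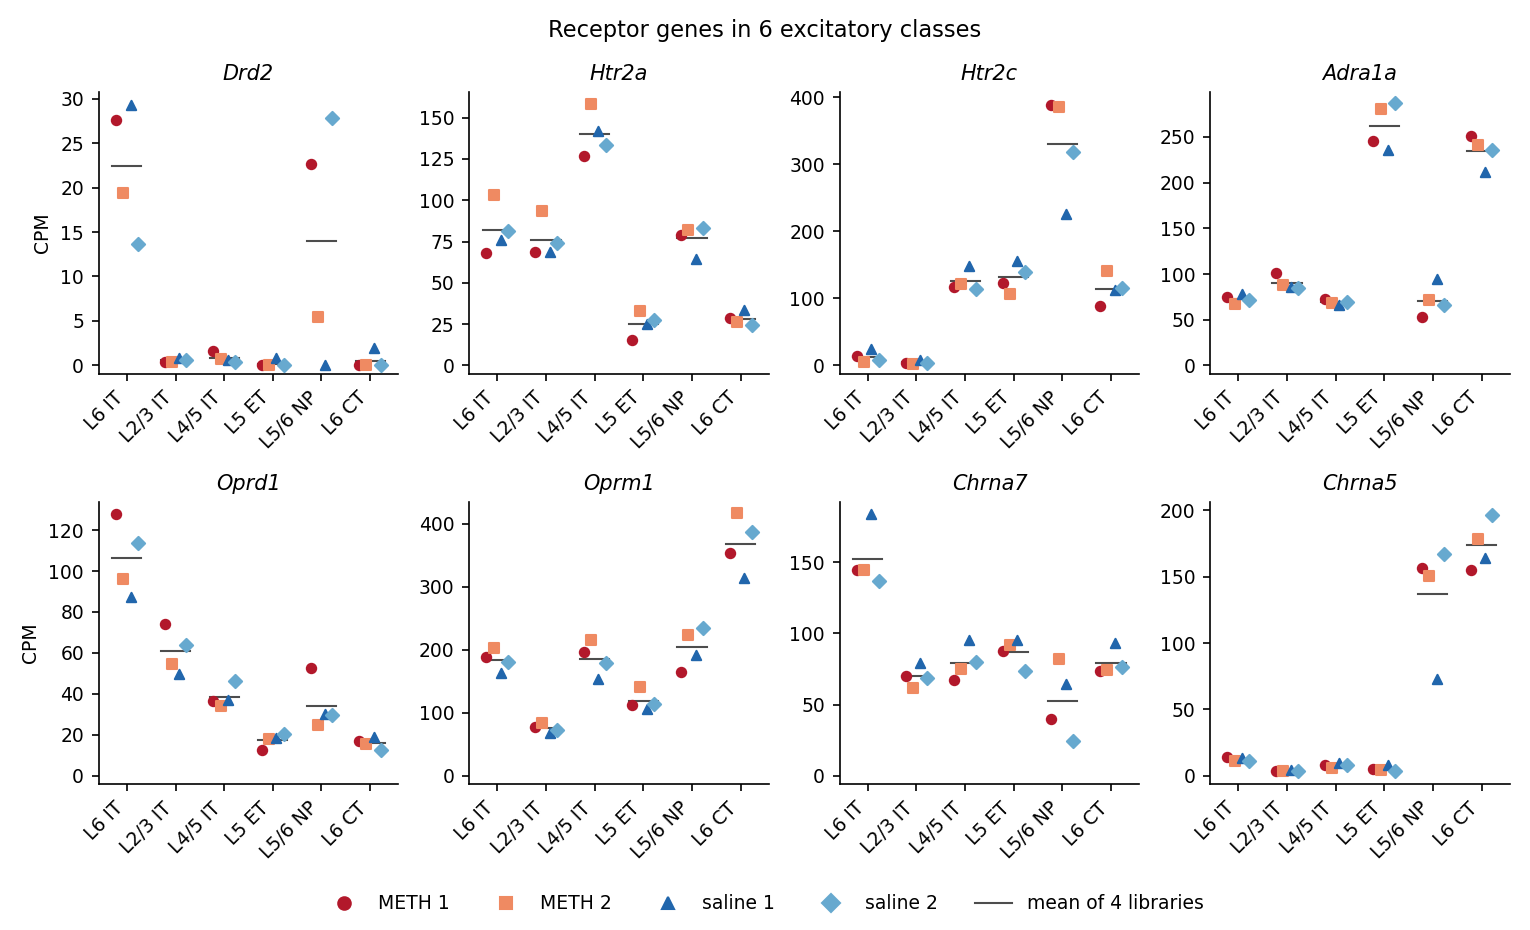
Levels in CPM of 8 receptor genes in 6 excitatory classes; each point is 1 library and each line the mean of 4 libraries. Drd2 is found in L6 IT and L5/6 NP, Oprd1 and Chrna7 are highest in L6 IT, and Htr2c and Chrna5 are low there.

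METH and saline were compared in L6 IT nuclei on UMI counts summed per library, with edgeR's quasi-likelihood test over 10480 genes. A single gene, Cst3, passed an adjusted p of 0.05, and it was higher in METH; no gene was lower. That is 0.00954% of the genes tested; 450 genes had an unadjusted p under 0.05, of which 256 were higher and 194 lower, and DESeq2 also called 1 gene. Over all tested genes the median log2 change was 0.00.

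Cst3 (ENSRNOG00000005195) encodes cystatin C, which cells secrete to block cysteine proteases and which glial cells make in quantity. It stood at 135 and 118 CPM in METH and at 58.6 and 67.6 CPM in saline, from 313, 251, 82 and 213 UMIs. The groups did not overlap. Its log2 fold change was 0.99 (SE 0.131; edgeR adjusted p = 5.9e-04). Over 14 alternatives its adjusted p ran from 3.14e-10 to 0.0276; without saline 1 it was 0.00517, with a log2 change of 0.93.

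Cst3 was also the single gene called in the other intratelencephalic classes. In L4/5 IT nuclei it rose as 1 of 12499 genes (0.008%; log2 change 0.86, SE 0.0898, edgeR adjusted p = 1.2e-04), and in L2/3 IT nuclei as 1 of 12390 (0.00807%; 0.98, SE 0.0959, adjusted p = 1.92e-05). In L6 CT nuclei its log2 change was 0.82 (SE 0.169) and did not pass (adjusted p = 0.555); the 1 gene called there, of 10321 (0.00969%), was Erbb4. The L6 IT change minus that of L6 CT, L4/5 IT and L2/3 IT was 0.20 (SE 0.157), 0.14 (SE 0.132) and 0.04 (SE 0.138), none past the threshold (adjusted p from 0.988642 to 0.999281). The 4 classes share libraries, so these are not independent observations.

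The level of Cst3 in other sets of barcodes moved in the same direction. Oligodendrocyte nuclei held 841, 776, 369 and 539 CPM. All kept nuclei together, neurons included, held 311, 316, 131 and 184 CPM. Barcodes with under 500 genes, which entered no class, held 1957, 1978, 666 and 1646 CPM, far above L6 IT nuclei in every library. At least 1 Cst3 UMI was found in 58.8%, 64.2%, 20.9% and 43.1% of L6 IT nuclei and in 62.0%, 65.8%, 29.2% and 43.3% of oligodendrocyte nuclei. The L6 IT share was within counting error of the oligodendrocyte share or below it in all 4 libraries, although L6 IT nuclei were deeper. Oligodendrocyte nuclei may express Cst3 themselves, so they cannot serve as a reference for free RNA of this gene. Whether L6 IT neurons express Cst3 was not tested. At 2000 UMIs the L6 IT shares were 27.3%, 22.6%, 11.2% and 13.1%. The part of RNA from other cells in the L6 IT difference was not tested.

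**Figure D4:**
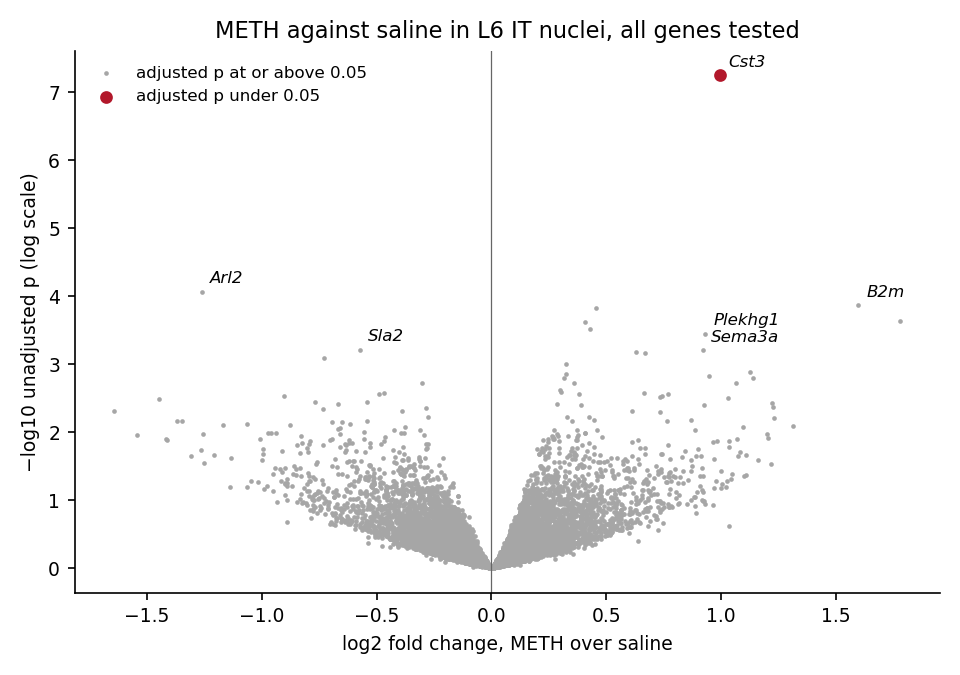
Log2 fold change of METH over saline (x axis) against −log10 of the unadjusted p (y axis) for the 10480 genes tested in L6 IT nuclei; each point is 1 gene, and the large red point passed an adjusted p of 0.05. Cst3, at 0.99, is the only gene past it in the main analysis.

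Among genes that did not pass, those lower in METH with the smallest p and no overlap between groups are given as values. Arl2, a small GTPase of tubulin and mitochondrial function, stood at 7.75, 15.1, 27.1 and 27.6 CPM (log2 change -1.26, SE 0.27; edgeR adjusted p = 0.394). Sla2, an adaptor protein, had a log2 change of -0.57, Serpine2, a secreted protease inhibitor, -0.73, and Il1rapl2, a synaptic adhesion receptor of the interleukin-1 receptor family, -0.30. Syncrip, an RNA-binding protein, was at -0.47, and Ppa2, a mitochondrial pyrophosphatase, at -0.49. By that choice these 6 genes were lower in both METH libraries than in both saline libraries, with adjusted p from 0.394 to 0.9988. With 2 libraries against 2, the smallest exact two-sided permutation p is 0.333. Lack of overlap alone is therefore weak evidence for any gene named in this report.

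On the higher side 6 genes were chosen after their values were seen. B2m, the light chain of MHC class I, stood at 12.5, 15.6, 5.00 and 4.44 CPM (log2 change 1.60, SE 0.356; edgeR adjusted p = 0.394). Like Cst3 it was higher in METH in all kept nuclei (30.8, 34.7, 17.1 and 19.3 CPM) and far higher in barcodes with under 500 genes (217, 308, 99.3 and 310 CPM); the part of such RNA in its L6 IT values was not tested. Lamc1, a laminin chain, had a log2 change of 0.46, Ppm1e, a phosphatase of CaM kinases, 0.41, Plekhg1, a guanine nucleotide exchange factor and leading gene of the class, 0.93, and Sema3a, a repulsive axon guidance ligand, 0.92. Zbtb16, a zinc-finger factor that glucocorticoids induce, was at 0.43 (225, 219, 181 and 156 CPM). None passed in the main analysis (adjusted p from 0.394 to 0.597). With no filter on low counts all 6 passed at much the same log2 changes: Ppm1e (edgeR adjusted p = 0.00685), Lamc1 (0.0189), B2m (0.0424), and Plekhg1, Sema3a and Zbtb16 (0.0434 each). Of the genes lower in METH, Arl2 (0.00806) and Sla2 (0.0434) passed there too. Ppm1e also passed with the replicate number as a block (0.0487).

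Genes of neuronal activity did not pass the test. Fos had 10, 9, 4 and 8 UMIs (4.30, 4.25, 2.86 and 2.54 CPM) and was too sparse to enter it. Arc stood at 12.5, 16.5, 12.9 and 14.6 CPM (log2 change 0.06, SE 0.273), Npas4 at 5.17, 6.61, 4.28 and 6.35 CPM (0.06, SE 0.43), and Bdnf, a neurotrophin, at 77.9, 91.1, 82.1 and 77.8 CPM (0.10, SE 0.134). The groups overlapped for Arc, Npas4 and Bdnf. Of 18 immediate early genes tested, 15 had a positive and 3 a negative log2 change, none was called, and the median was 0.08. The 2 with the smallest p were Fosb (14.2, 7.55, 4.28 and 7.62 CPM; 0.77, SE 0.38) and Dusp1, a MAP kinase phosphatase (16.8, 16.0, 6.43 and 14.0 CPM; 0.54, SE 0.296).

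Monoamine genes did not pass either. The log2 change of Drd2 was 0.31 (SE 0.308), that of Htr2a 0.12 (SE 0.161) and that of Htr2c -0.48 (SE 0.636), each with overlapping groups. Of 10 dopamine receptor and signalling genes tested 4 were positive and 6 negative (median -0.03), with Maob, which breaks down monoamines, at -0.68. Slc18a2 was at 0.19. The 3 serotonin receptors tested had a median of -0.32, with Htr6 at -0.32, and the 3 adrenergic receptors 0.10, with Adra1b at 0.24 and Adra1a at -0.05.

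Glutamate and GABA receptor lists had medians close to 0, with members on either side. The medians were 0.03 for 9 AMPA and kainate subunits, 0.01 for 4 NMDA subunits and -0.01 for 6 metabotropic receptors, and none was called. Single members lay further out, such as Grik1, a kainate subunit, at 0.71 (SE 0.486) and Grm2 at -0.41 (SE 0.212). The 13 GABA receptor genes had a median of 0.01, with 4 of 13 at an unadjusted p under 0.05, against 450 of 10480 over all genes. The 2 with the smallest p were Gabrb1 (1576, 1688, 1352 and 1512 CPM; log2 change 0.20, SE 0.0783) and Gabrg1 (0.87, SE 0.367), with edgeR adjusted p = 0.999365 for each. Gabrb1 was higher in both METH libraries, while Gabrg1 overlapped.

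Potassium channel genes mostly had positive values, and none was called. Of 22 tested, 20 had a positive log2 change (median 0.10), against 5236 of 10480 among all genes. Kcnh5 stood at 171, 160, 141 and 134 CPM (0.29, SE 0.107) and Kcnj6, a G-protein-gated inward rectifier, at 108, 97.2, 69.3 and 94.3 CPM (0.29, SE 0.137), both higher in the METH libraries. Of the sodium, calcium and HCN channels, 11 of 20 were positive (median 0.01). Without the genes used by the rule, 13 of 18 genes of synaptic vesicle release were negative (median -0.03), 12 of 16 postsynaptic scaffolds and kinases were positive (median 0.06), and 6 of 15 synaptic adhesion genes were positive (median -0.01).

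Genes related to the panel were also read as families. Genes used by the rule are left out of these counts. Of 13 GalNAc transferases 10 were positive (median 0.12), with Galnt9 at 216, 178, 134 and 166 CPM (log2 change 0.38, SE 0.115) and Galnt11 at 0.33 (SE 0.137). Of 18 genes of heparan sulfate synthesis and editing 11 were positive (median 0.03). Of the Eya family and its partners 3 were tested and all 3 were positive, with Dach1 at 28.8, 29.3, 21.4 and 14.9 CPM (0.77, SE 0.232). None of these was called. Galnt14, Eya1 and Sulf1 were in the fit over all genes, but no test of theirs is reported, because the rule used their UMIs. For Adamts3 the log2 change was 0.04 (SE 0.0921).

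Stress and clock genes did not pass the test. Fkbp5, which glucocorticoids induce, stood at 35.3, 39.2, 20.7 and 26.7 CPM, higher in both METH libraries (log2 change 0.61, SE 0.198; edgeR adjusted p = 0.999365). Of 7 genes of the glucocorticoid list tested 5 were positive (median 0.12). Of 15 clock genes, without Rorb, 10 were positive (median 0.12), with Hlf at 0.26 (SE 0.123) and Per2 at 0.24 (SE 0.139). No gene of either list was called.

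Layer transcription factors mostly had negative values. Of 19 tested and not used by the rule, 14 were negative (median -0.03), with Etv1 at 58.5, 64.7, 77.8 and 82.9 CPM (log2 change -0.38, SE 0.138) and Lmo3 at -0.26 (SE 0.12). Nr4a2 was at -0.42 (SE 0.288). Of 13 neuropeptide and opioid genes 8 were positive (median 0.14), with Oprm1 at 0.19 (SE 0.101) and the neuropeptide Y receptor Npy5r at -0.86 (SE 0.377).

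The remaining lists are given by counts, and none held a call apart from Cst3 in the cathepsin and lysosome list (9 of 13 positive, median 0.10). Positive were 16 of 25 axon guidance genes (median 0.07; Slit1 0.23, SE 0.0917), 16 of 29 chromatin regulators (0.02), 3 of 7 acetylcholine receptors (-0.10), 3 of 7 endocannabinoid genes (-0.04), and 4 of 4 neurotrophin and Trk genes (0.13). Of 10 mitochondrially encoded genes 7 were positive (0.16), of 22 nuclear oxidative phosphorylation subunits 12 (0.01), of 19 ribosomal proteins 11 (0.06) and of 16 heat shock and unfolded protein genes 10 (0.05).

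Markers of other cells were measured in the same L6 IT sums. Microglial markers summed to 76.2 and 72.2 CPM in METH and to 46.4 and 55.9 CPM in saline; 5 of the 6 tested were positive (median 0.68), with Ctss at 1.10 and C1qa at 0.80. Oligodendrocyte markers summed to 284, 224, 195 and 208 CPM, with 7 of 9 positive (median 0.34; Mobp 0.97). Astrocyte markers overlapped between the groups (352, 396, 411 and 348 CPM; Clu -0.53, Apoe 0.30). No marker of these lists was at 0 throughout. None of these genes was called. The summed microglial and oligodendrocyte levels were higher in METH, as Cst3 and B2m were, and their part in those values was not tested.

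Inhibitory neuron markers, without the gated Gad1 and Gad2, summed to 133, 94.9, 82.8 and 67.9 CPM in L6 IT nuclei. All 5 that could be tested were positive (median 0.60), with Vip at 0.95 (SE 0.266; 18.9, 22.7, 12.1 and 10.2 CPM) and Adarb2 at 1.07 (SE 0.298), and none was called. In L6 CT nuclei the same markers summed to 82.0, 67.1, 133 and 103 CPM, lower in METH.

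The METH effect in L6 IT minus that in L6 CT was tested in 1 fit with the library as a block. Of 11050 genes tested, 3 passed (0.0271%), all with a higher value in L6 IT. Erbb4, a neuregulin receptor abundant in interneurons, stood at 47.8, 31.2, 30.0 and 30.5 CPM in L6 IT and at 20.4, 17.4, 48.1 and 51.0 CPM in L6 CT; the difference was 1.79 (SE 0.258; edgeR adjusted p = 0.00111). Kcnip1, a potassium channel interacting protein, stood at 30.1, 7.08, 6.43 and 10.8 CPM in L6 IT and at 4.25, 1.58, 17.5 and 11.2 CPM in L6 CT, a difference of 3.19 (SE 0.506, adjusted p = 0.00333). Adarb2, an RNA-editing family protein of interneurons, stood at 35.3, 17.5, 14.3 and 12.1 CPM against 10.6, 10.6, 24.0 and 17.6 CPM, a difference of 1.97 (SE 0.373, adjusted p = 0.0408).

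All 3 genes are far more abundant over all kept nuclei than in L6 IT nuclei. Erbb4 stood there at 607, 502, 397 and 523 CPM, Kcnip1 at 164, 124, 107 and 135 CPM and Adarb2 at 145, 140, 104 and 124 CPM. In L6 IT nuclei the METH 1 library alone held the high values of Erbb4 and Kcnip1. Without METH 1 none of the 3 differences passed (adjusted p = 0.676 for Erbb4, 0.999841 for Kcnip1 and Adarb2), while their sizes were 1.55, 2.64 and 1.34. The L6 IT change of Kcnip1 alone turned from 1.04 to -0.38. Without METH 2 only Erbb4 passed (0.0468), and with at least 5 panel UMIs per nucleus none of 10665 genes did, at differences of 1.86 (Erbb4), 2.66 (Kcnip1) and 1.53 (Adarb2). Erbb4 itself was the gene that fell in L6 CT (log2 change -1.37, edgeR adjusted p = 0.0219); in L6 IT its change of 0.40 did not pass. The part of interneuron RNA in these differences was not tested.

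**Figure D5:**
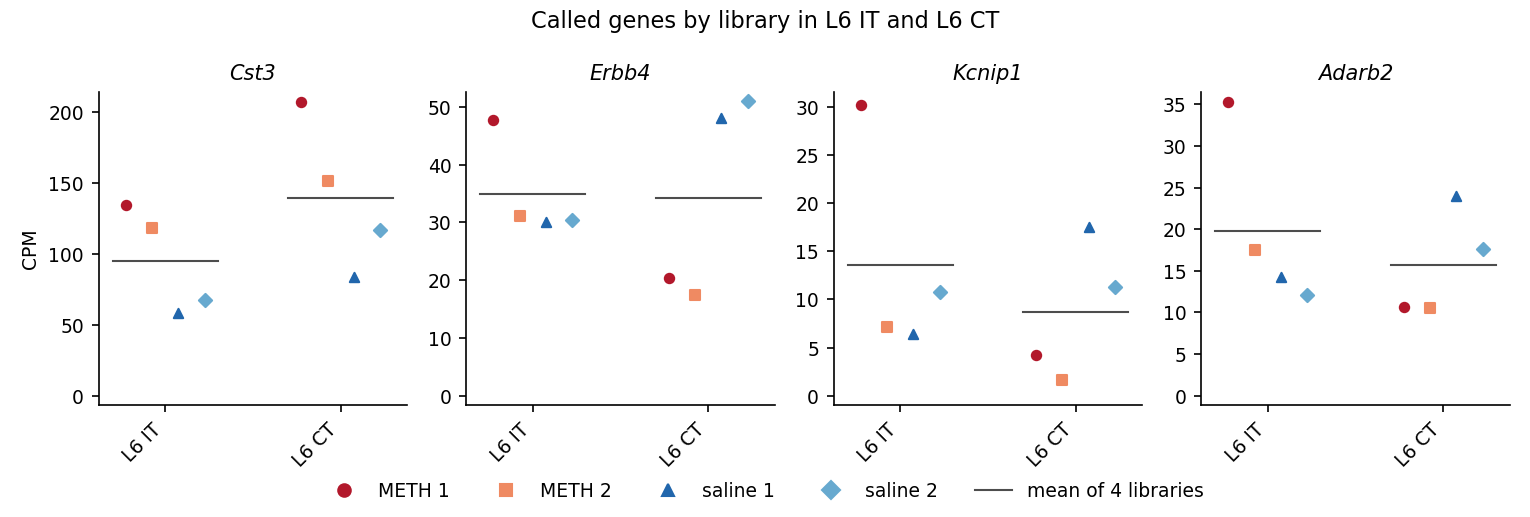
Levels in CPM of Cst3 and of the 3 genes whose METH effect differed between L6 IT and L6 CT nuclei in the main analysis. Each point is 1 library and each line the mean of 4 libraries. Cst3 is higher in METH in both classes, while Erbb4, Kcnip1 and Adarb2 are lower in METH in L6 CT and highest in METH 1 in L6 IT.

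Against the other intratelencephalic classes no difference in METH effect passed in the main analysis. Against L4/5 IT, 0 of 12323 genes passed edgeR's test (0%; 641 at an unadjusted p under 0.05), and against L2/3 IT 0 of 12265 (0%; 570 at an unadjusted p under 0.05). The smallest p values belonged to Rhbdl3, a rhomboid family protein, against L4/5 IT (difference 1.54, SE 0.302, adjusted p = 0.0885), followed by Adarb2 (1.28, adjusted p = 0.557). With no filter on low counts, Rhbdl3 passed at a difference of 1.54 (adjusted p = 0.00636), as did Kcnip1 (1.71, adjusted p = 0.00636), and without saline 2 there were 26 calls. Against L2/3 IT they belonged to Prkd1, protein kinase D1 (0.50, SE 0.118), and Dnajc2, a ribosome-associated chaperone (-0.45, SE 0.112), both with adjusted p = 0.424. Rhbdl3 stood at 23.2, 33.5, 7.86 and 18.7 CPM in L6 IT nuclei and at 5.83, 10.1, 8.10 and 14.2 CPM in L4/5 IT nuclei. Prkd1, a leading gene of the class, stood at 353, 342, 270 and 289 CPM against 59.1, 46.9, 63.8 and 56.7 CPM.

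Leaving out 1 library changed the number of genes called between METH and saline in L6 IT nuclei from 1 to 17 (without METH 1), 5 (without METH 2), 1 (without saline 1) and 24 (without saline 2). Cst3 was among the calls in each of these fits. Without saline 2 the called genes also held Slit2, an axon guidance ligand (-0.59), Grm3, a metabotropic glutamate receptor (-0.51), and Ppm1e (0.57), and without METH 1 they held Plekhg1 (1.16) and Ppm1e (0.49). With 3 libraries the lone library of a group is assumed to vary like the other group.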

How the data were processed

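Nuclei of rat orbitofrontal cortex were profiled in 4 libraries, 2 METH and 2 saline. The deposited files hold raw UMI counts per gene and barcode, with no normalization; per the submitters' processing notes they come from Cell Ranger 7.0.0. Those notes list hg38, a human build, but the identifiers are those of rat genes in Ensembl. No rat build is named in the sources, so positions are left out. Symbols are those of the files, and genes that share reads with near-identical copies are uncertain.

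Counts were read with Scanpy 1.11.5 in Python 3.11.15 and filtered by the rule in the first paragraph. The members and lists were chosen with earlier results of these data known, among them the rise of Cst3 in excitatory nuclei. Doublets were not removed in the main analysis; as an alternative, the nuclei with the highest Scrublet scores were left out, up to 0.8% per 1000 barcodes of a library. UMIs were summed per library and class (1400216 to 3149781 UMIs in L6 IT) and tested with edgeR 4.0.16 in R 4.3.3 (TMM, filterByExpr, robust quasi-likelihood, Benjamini-Hochberg over all genes tested, threshold 0.05); DESeq2 1.42.0 was an alternative. Differences in METH effect were the class-by-treatment term with library as a block. The L6 IT fit and its difference from L6 CT were run on simulated counts with the same dispersion for every gene. The changed genes were not sparse, and no free RNA or library effect was added. That check therefore does not bear on sparse genes or on values carried by a single library.

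Genes were named by a rule: the panel genes and Adamts3; genes called without overlap between groups, up to 12 per direction, or with none called the 6 with the smallest p; for lists described by members, those called or else the 2 with the smallest p; 12 genes whatever their result; the 20 leading genes; and genes called in a difference of METH effects, or else the 2 with the smallest p. Others are said to be chosen after their values were seen. A few genes that the rule names are not reported here. Alternatives were RLE size factors, no low-count filter, each library left out, the replicate number as a block, stricter nuclei (at least 5 panel UMIs, at least 1000 genes, at most 1% mitochondrial UMIs), doublets or Nr4a2 nuclei left out, and thinning to 2000 UMIs. Barcodes with fewer than 500 genes entered no class and are shown only as a reference level; whether they are free RNA or small nuclei was not tested.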

Additional observations from a re-analysis of the deposited data

Results flagged for a closer look

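In the main analysis 3 genes passed a test of the difference in METH effect between L6 IT and L6 CT nuclei. They were Erbb4 (difference in log2 change 1.79), Kcnip1 (3.19) and Adarb2 (1.97). In L6 CT both METH libraries lay below both saline libraries for each of the 3. In L6 IT they lay above them for Erbb4 and Adarb2 and overlapped with them for Kcnip1. For Erbb4 in L6 IT, METH 2 (31.2 CPM) was close to saline (30.0 and 30.5 CPM). With at least 5 panel UMIs none of the 3 passed, at differences of 1.86, 2.66 and 1.53. Without METH 1 the differences were 1.55, 2.64 and 1.34, and the L6 IT change of Kcnip1 was -0.38 instead of 1.04.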

How the results depend on the processing

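Limits: 2 libraries per group and 1400216 to 3149781 L6 IT UMIs per library bound what could be called, and the sparse genes Fos, Drd1 and Oprk1 could not be tested. Cst3 kept its direction and passed under all 14 alternatives. The number of METH calls in L6 IT was 1 in the main analysis, 15 with no filter on low counts, 3 with the replicate block, and 1 to 24 with 1 library left out; it was 1 under the other alternatives. The labels state no pairing of the libraries. Deviations of same-numbered libraries from their group means correlated at 0.00245 over 10480 genes. With 2 libraries per group each deviation is a single difference, so this value cannot decide whether the replicate numbers pair the libraries. Differences from L6 CT numbered 6 with no filter, 0 with at least 5 panel UMIs and 1 to 49 with 1 library left out; from L4/5 IT 2 with no filter and 1 to 26 with 1 library left out; from L2/3 IT 0 to 6 with 1 library left out. The cause was not tested. The share difference ran from -2.38 to 2.99 points with 1 library left out. Of 228 medians of gene lists under an alternative, genes used by the rule included, 76 moved by more than the standard error over the list's genes. Log2 changes that turned sign had not passed the threshold in the main analysis. With 1 library left out they ran from -0.15 to 0.25 (Arc), -0.11 to 0.44 (Npas4), -0.016 to 0.21 (Bdnf), -0.31 to 0.81 (Drd2), -0.21 to 0.39 (Htr2a), -1.36 to 0.30 (Htr2c), -0.60 to 0.0064 (Nr4a2), -0.056 to 0.12 (Adamts3), -1.50 to 0.040 (Maob), -0.15 to 0.022 (Adra1a), -0.017 to 0.53 (Apoe) and -0.38 to 1.70 (Kcnip1). Arc was at -0.033 without doublets, -0.051 without Nr4a2 nuclei and -0.41 thinned; Npas4 at -0.20 without doublets; Bdnf at -0.013 with at least 5 panel UMIs and -0.12 thinned; Htr2a at -0.25, Apoe at -0.080 and Dnajc2 at 0.0059 thinned; and Adamts3 at -0.013 with at least 5 panel UMIs.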
